A study of Saccharomyces cerevisiae with 6 samples.

Results

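The 42 genes described here encode factors of the small subunit processome and of 40S ribosomal subunit assembly in the budding yeast *Saccharomyces cerevisiae*. They were taken by gene symbol from the platform annotation: the UTP proteins, the Mpp10 complex and other proteins needed to process 18S ribosomal RNA. All 42 of the 42 symbols had a probe set on the Affymetrix Yeast Genome S98 array, among 5656 annotated genes in all, and all 42 passed the filter on dim probe sets that left 5257 genes tested. The comparison was between Y255, a wild-type strain, and Y2685, an isogenic cbc2Δ strain. CBC2 encodes the smaller protein of the complex that binds the cap of nascent RNA in the nucleus. Each strain was measured on 3 arrays from total RNA of cells grown in SC medium at 30 °C to an OD600 of 1.0. Each group is 1 strain. The submitters describe the 6 experiments as independent without stating separate cultures, and the p-values therefore measure only the spread between these samples, which may be technical.

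The small subunit processome is a large particle that forms in the nucleolus on the nascent ribosomal RNA precursor, around the U3 small nucleolar RNA. Its proteins fold the precursor, pair it with U3, modify it and help to cut out the part that becomes 18S ribosomal RNA. A smaller group of factors stays with the particle while it is exported and matures into the 40S subunit. In yeast these genes belong to the ribosome assembly regulon, which is known to be transcribed at a high rate in growing cells and shut down under stress. The array reads the RNA of a whole culture, so less RNA per cell and fewer cells that carry it cannot be told apart.

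The deleted gene itself, CBC2 (YPL178W), had normalised intensities of 882, 840 and 763 in the wild type. All 3 deletion arrays read the floor of 8.25, the value to which dimmer signals were raised, at least 100-fold lower (limma adjusted p = 1.18e-08). The trimmed mean of the deposited intensities differed 1.88-fold between arrays, and the arrays were quantile normalised before the test. Only wild-type replicates 1 and 2 went through the first of the fluidics stations that wash the arrays, the remaining 4 arrays went through the second, and deletion replicate 2 was scanned apart from the rest. The ratio of 3′ to 5′ signal of the control transcript SPT15 was 2.48 to 3.74 in the wild type and 3.67 to 5.13 in the deletion, and that of ACT1 was 1.15 to 1.47 and 1.02 to 1.42. All 3 deletion arrays and only wild-type replicate 3 shared the second station, so station and strain can be told apart only in part. Fits with the station as a block and without deletion replicate 2 are given below. The part of the other differences in the results below was not tested. Of the mating-type markers, the 4 alpha-cell genes summed to an intensity of 9632 to 10329 in the wild type and 9434 to 9896 in the deletion, and the 6 a-cell genes, none at the floor on every array, to 194 to 213 and 169 to 215. Most of the alpha-cell sum came from MF(ALPHA)1 alone. Of these 10 genes 6 were tested, and 1 was called, the a-factor exporter gene STE6 (lower, log2 fold change -0.74). The alpha-cell genes MF(ALPHA)1, MF(ALPHA)2, SAG1 and STE3 were at -0.05, 0.51, 0.27 and -0.53.

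In the deletion strain 10 of the 42 genes rose, 1 fell and 31 were not called at a limma adjusted p under 0.05. The risers were EMG1, UTP22, KRE33, UTP21, RRP5, UTP20, UTP14, UTP13, KRR1 and IMP3, with rises from 1.52-fold to 2.15-fold, and the gene that fell was the helicase gene FAL1. The share called higher was 23.8%, beside 16.3% of all tested genes, and the share called lower was 2.38%, beside 16.3%. In either direction 26.2% of the 42 were called, beside 32.6% of all tested genes, so these genes were not called more often than the genome at large. Their median log2 fold change (deletion minus wild type) was 0.27 with quartiles of -0.02 and 0.58, against a median of 0.00 with quartiles of -0.37 and 0.39 for all tested genes. Log2 fold changes lay above 0 for 31 of the 42, and for 2650 of the 5257 tested genes. All 3 deletion values lay above all 3 wild-type values for 15 genes and below them for 1, beside 24% and 25.7% of all tested genes.

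**Figure D1:**
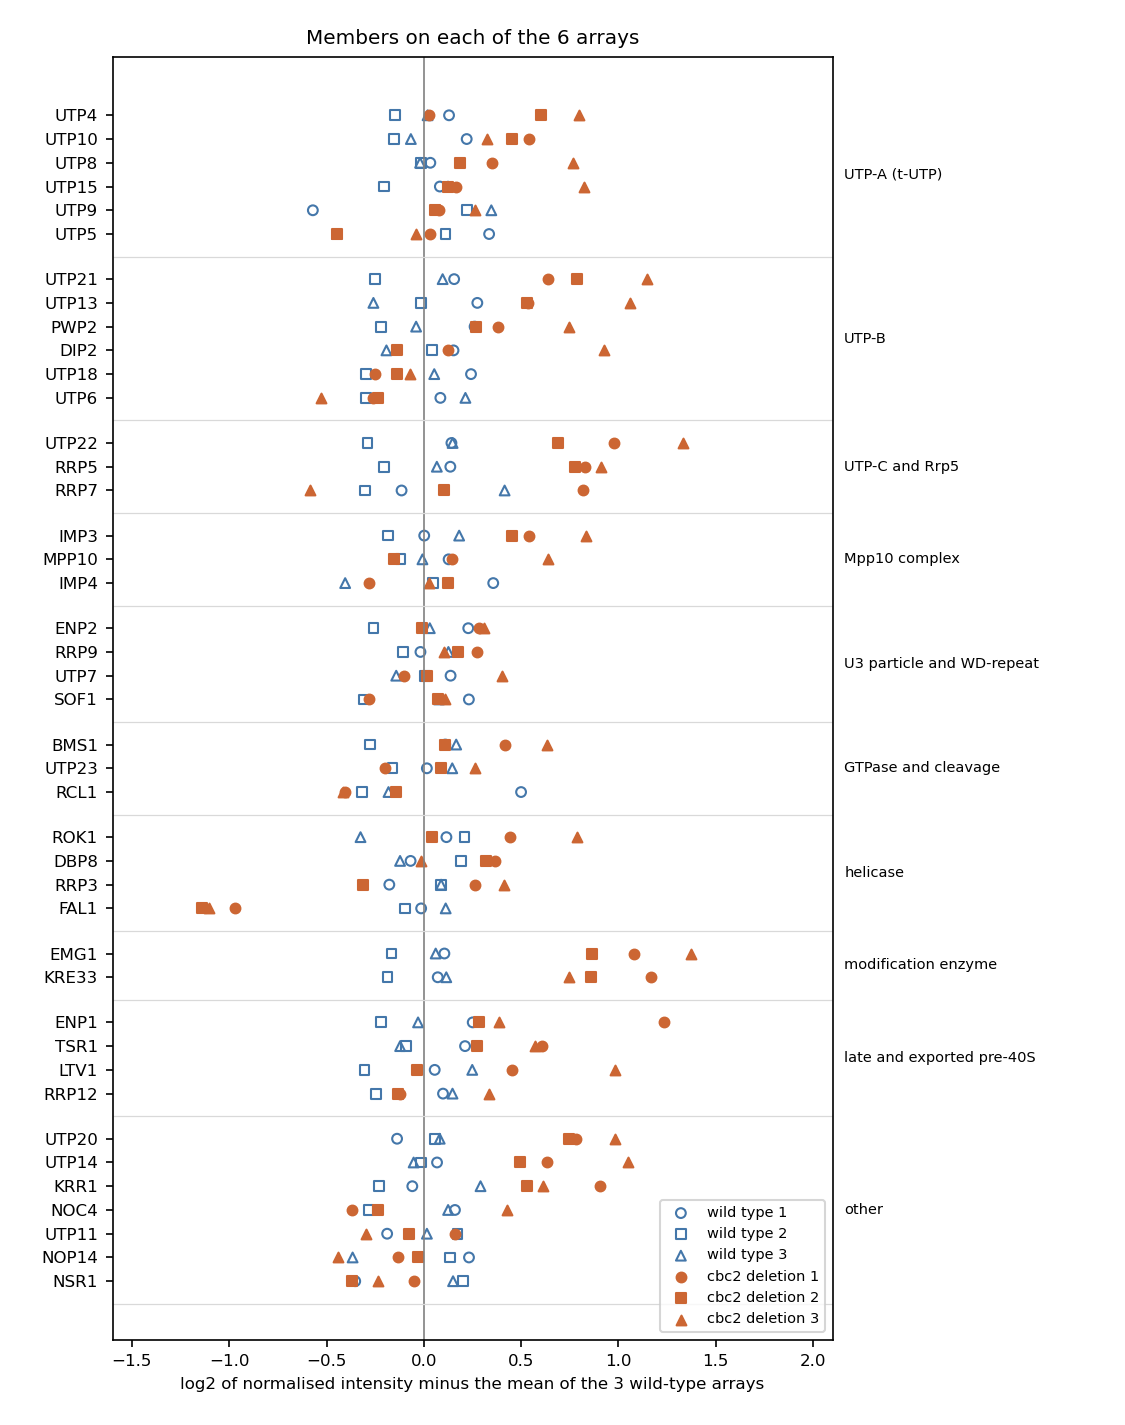
Normalised log2 intensity of each of the 42 genes on each of the 6 arrays, as the difference from the mean of the 3 wild-type arrays. Rows are genes grouped by role, open blue symbols are wild-type arrays and filled orange symbols are deletion arrays, with 1 symbol shape per replicate number. Values of the strains do not overlap for 15 genes to the right and for FAL1 to the left, beside 24% and 25.7% of all tested genes. Deletion replicate 3 is the highest of the deletion arrays for 26 of the 42 genes, beside 40% of all tested genes.

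Both enzymes of the set that modify ribosomal RNA rose. EMG1 (YLR186W), which encodes the methyltransferase that acts on a pseudouridine of 18S ribosomal RNA, had normalised intensities of 262, 217 and 254 in the wild type and 514, 444 and 630 in the deletion. All deletion values lay above all wild-type values, and the means were 244 ± 23.9 and 529 ± 93.8 (SD, n = 3 each). This was the highest rise among the 42 genes (log2 fold change 1.11, SE 0.18, limma adjusted p = 0.00191). KRE33 (YNL132W), the gene of the enzyme that makes acetylcytidine in 18S ribosomal RNA, had intensities of 22.6, 18.9 and 23.3 in the wild type and 48.3, 39.0 and 36.1 in the deletion. The groups did not overlap, although the probe set was dim on every array (log2 fold change 0.93, SE 0.25, limma adjusted p = 0.0192). The filter used the mean over all arrays, and without deletion replicate 1 KRE33 was too dim to be tested. Its raised deletion values thus helped it to pass. With no filter on dim probe sets its limma adjusted p was 0.0211.

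Of the 3 genes of UTP-C and Rrp5, factors that join the early particle, UTP22 and RRP5 rose and RRP7 was not called. UTP22 (YGR090W), a UTP-C subunit, was at 240, 178 and 241 in the wild type and 428, 351 and 548 in the deletion. Every deletion array was higher than every wild-type array, a rise of 1.00 on the log2 scale (SE 0.21, limma adjusted p = 0.00634). The platform annotation gives UTP22 another 5 probe sets, of which 4 were tested. These 4, all with a cross-hybridisation suffix, had log2 fold changes of 0.61 to 1.06. Their limma adjusted p was 0.0176 and 0.0178, both called, and 0.0622 and 0.107, neither called. RRP5 (YMR229C), an RNA-binding protein needed for both 18S and 5.8S ribosomal RNA, was at 277, 219 and 264 in the wild type and 448, 432 and 473 in the deletion. The 3 deletion values were close together and above all wild-type values (log2 fold change 0.84, SE 0.16, limma adjusted p = 0.00426). RRP7 (YCL031C), the other UTP-C gene of the set, was the most scattered of the 42, at 124, 109 and 179 against 237, 144 and 89.6. Its groups overlapped fully, and the 95% interval of its log2 fold change of 0.11 ran from -0.62 to 0.84.

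The UTP-B complex, which binds U3 and the 5′ leader of the precursor, was split. UTP21 (YLR409C), a WD-repeat subunit, rose from 199, 150 and 191 to 278, 308 and 396 (log2 fold change 0.86, SE 0.19, limma adjusted p = 0.00899). UTP13 (YLR222C), another WD-repeat subunit, rose from 181, 148 and 125 to 217, 216 and 312 (log2 fold change 0.71, SE 0.21, limma adjusted p = 0.0276). In neither gene did the strains overlap. The other 4 subunits were not called. PWP2 had a log2 fold change of 0.47 with an interval from -0.04 to 0.97, and its strains did not overlap by a small margin, 55.3 for the highest wild-type array against 55.6 for the lowest deletion array. DIP2 was at 0.31, UTP18 at -0.15 and UTP6 at -0.34, with intervals that all included 0. The differences between subunits were not tested.

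None of the 6 genes of UTP-A, the complex that binds the 5′ end of the precursor first and is also named t-UTP for its part in transcription of ribosomal DNA, was called. UTP10 (YJL109C), a HEAT-repeat protein the only 1 of the 6 with an unadjusted p under 0.05, was at 377, 291 and 309 in the wild type and 470, 443 and 405 in the deletion. The strains did not overlap, and the log2 fold change was 0.44 with an interval from 0.07 to 0.81 (limma adjusted p = 0.0685). UTP8, which is also known for a role in transfer RNA export, likewise did not overlap, at 86.7, 83.9 and 83.6 against 108, 96.4 and 144 (log2 fold change 0.43, limma adjusted p = 0.116). UTP4 and UTP15 had log2 fold changes of 0.48 and 0.37 with overlapping strains, UTP9 was at 0.13 and UTP5 at -0.15. The median of the 6 log2 fold changes was 0.40, above the median of 0.27 for all 42 genes, and the absence of calls does not show that these genes were level.

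In the Mpp10 complex, which rides on U3 and helps it to pair with the precursor, IMP3 (YHR148W) rose and its partners were not called. IMP3 was at 166, 146 and 188 in the wild type and 241, 227 and 295 in the deletion, with no overlap (log2 fold change 0.61, SE 0.18, limma adjusted p = 0.0269). MPP10, the scaffold of the complex, was at 0.20 with an interval from -0.28 to 0.69, and IMP4 at -0.04 with an interval from -0.53 to 0.45. On deletion replicate 3 MPP10 stood at 208, against 148 and 120 on the other deletion arrays.

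The WD-repeat proteins of the U3 particle and the proteins close to the cleavage steps had no called gene. RRP9 (YPR137W), the protein specific to the U3 particle, was at 277, 260 and 306 in the wild type and 339, 317 and 301 in the deletion. The strains overlapped, and the log2 fold change of 0.18 had an interval from -0.16 to 0.53. ENP2, UTP7 and SOF1, all WD-repeat proteins, were at 0.19, 0.10 and -0.04. BMS1 (YPL217C), a GTPase that works with RCL1, was at 126, 96.4 and 131 against 156, 126 and 181, and deletion replicate 2 lay within the wild-type range (log2 fold change 0.38, interval -0.07 to 0.83). RCL1, which is needed for the cut that separates the 18S part from the rest, was at -0.32 with an interval from -0.84 to 0.19. UTP23, a PIN-domain protein that acts on the small nucleolar RNA snR30, was at 0.05.

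Among the 4 DEAD-box RNA helicase genes, FAL1 fell and the others were not called. FAL1 (YDR021W), whose protein resembles translation factor eIF4A, was at 66.8, 63.0 and 72.9 in the wild type and 34.4, 30.6 and 31.4 in the deletion. All deletion values lay below all wild-type values, with means of 67.6 ± 5.01 and 32.1 ± 2.02 (SD, n = 3 each). FAL1 was 2.1-fold lower in the deletion (log2 fold change -1.07, SE 0.20, limma adjusted p = 0.00397). ROK1, DBP8 and RRP3 had log2 fold changes of 0.42, 0.22 and 0.12, all with intervals that included 0. FAL1 was called lower in each of the 19 other settings that tested it, with log2 fold changes from -1.38 to -0.80 and adjusted p from 0.00174 to 0.0443. On the deposited scale, where 7.36% of all tested genes were called lower, its intensities were 75.1, 85.1 and 60.8 against 38.7, 28.5 and 19.8.

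**Figure D2:**
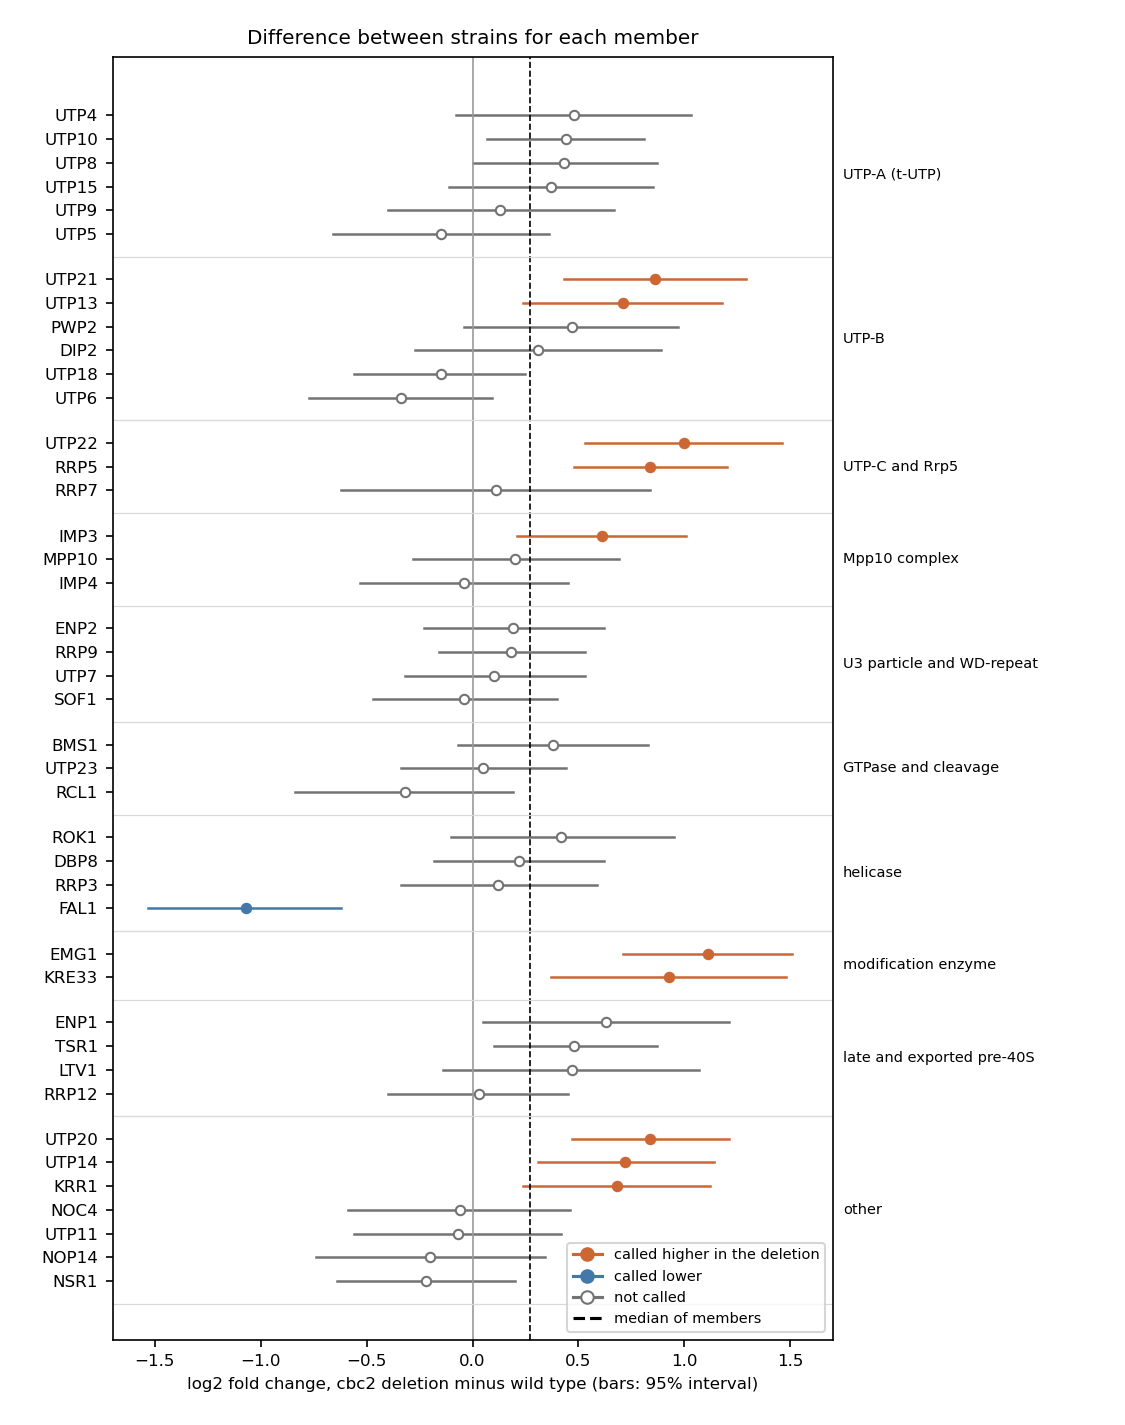
Log2 fold change of each of the 42 genes, cbc2 deletion minus wild type, with its 95% interval from limma. Rows are genes grouped by role, filled orange and blue points passed an adjusted p under 0.05 in the higher and lower direction, open points did not, and the dashed line is the median of the 42 genes, 0.27. The 10 risers are spread over 5 of the 10 role groups, and FAL1 stands alone on the left at -1.07.

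None of the 4 factors that stay with the exported pre-40S particle was called, and TSR1 and ENP1 had an unadjusted p under 0.05. TSR1 (YDL060W), which encodes a GTPase-like protein of the cytoplasmic particle, was at 281, 228 and 223 in the wild type and 370, 293 and 360 in the deletion. The strains did not overlap, and the adjusted p lay just outside the threshold (log2 fold change 0.48, interval 0.10 to 0.87, limma adjusted p = 0.0584). ENP1, which is found in both the nucleolar and the exported particle, was at 130, 93.7 and 107 against 257, 133 and 143. Its strains did not overlap, but 1 deletion array carried most of the difference (log2 fold change 0.63, interval 0.05 to 1.21, limma adjusted p = 0.0879). LTV1, a partner of ENP1 at the head of the particle, was at 0.47 with overlapping strains. RRP12, a HEAT-repeat export factor, was at 0.03 with an interval from -0.40 to 0.45.

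Of the 7 remaining genes, 3 rose. UTP20 (YBL004W), a very large HEAT-repeat protein, rose from 98.8, 113 and 115 to 187, 182 and 215, tight in both strains (log2 fold change 0.84, SE 0.17, limma adjusted p = 0.00494). The annotation gives UTP20 another 9 probe sets, all dimmer. The 4 of them that were tested carry a cross-hybridisation suffix and had log2 fold changes of 0.19 to 0.70, none called. UTP14 (YML093W), which activates the helicase Dhr1, rose from 125, 118 and 115 to 185, 168 and 247 (log2 fold change 0.72, SE 0.19, limma adjusted p = 0.016). KRR1 (YCL059C), a KH-domain protein, rose from 94.9, 84.2 and 121 to 185, 143 and 151 (log2 fold change 0.68, SE 0.20, limma adjusted p = 0.0252). The strains did not overlap in any of the 3. NOC4 and NOP14, which form a pair, were at -0.06 and -0.20, UTP11 at -0.07 and NSR1, the yeast relative of nucleolin, at -0.22, all with intervals that included 0.

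The 31 genes that were not called had log2 fold changes from -0.34 to 0.63, with a median of 0.13, and 21 of them lay above 0. For 28 of the 31 the 95% interval included 0, and for 28 it excluded a 2-fold change in either direction. For 17 it still included a 1.5-fold rise, so a rise of that size was not excluded by these arrays.

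The difference was not the same on each deletion array. The median difference of the 42 genes from the wild-type mean was 0.11, -0.16 and 0.06 for wild-type replicates 1 to 3 and 0.28, 0.10 and 0.42 for deletion replicates 1 to 3. Deletion replicate 2 thus lay inside the wild-type range for the set as a whole, and the other deletion replicates above it. Over all tested genes the same medians lay between -0.03 and 0.02. Quantile normalisation gives every array the same distribution and so holds these medians near 0. Deletion replicate 2 was the lowest deletion array for 25 of the 42 genes, against 27.6% of all tested genes, and deletion replicate 3 the highest for 26, against 40%. Deletion replicate 3 was also the dimmest array as deposited, with a median of 78 against 105.1 to 174.8 for the wild type, and had the highest SPT15 ratio, 5.13. The part of overall intensity and RNA integrity in this order was not tested. Deletion replicate 2 was the only array of its scan batch, so the batch and the array cannot be told apart.

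**Figure D3:**
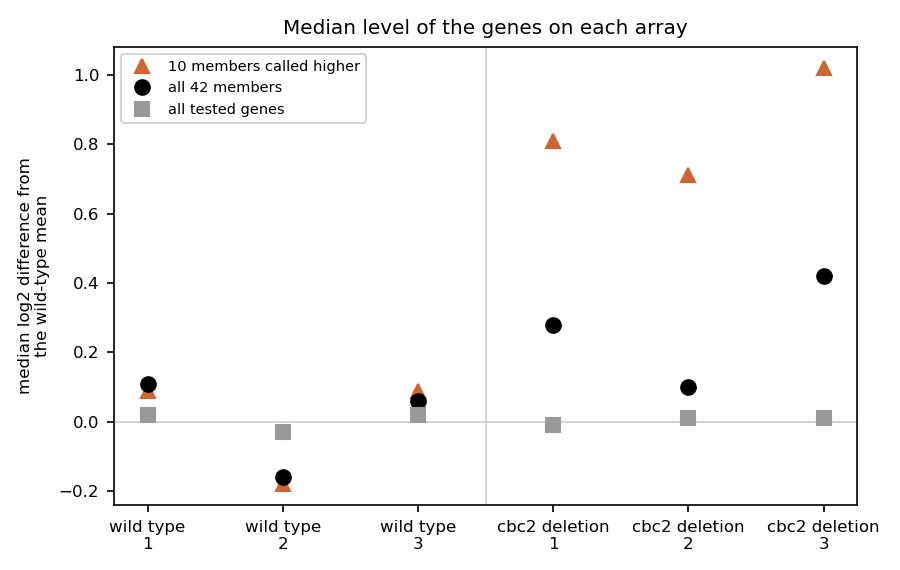
Median log2 difference from the wild-type mean on each array, for the 10 genes called higher (triangles), all 42 genes (circles) and all tested genes (squares). The 42 genes stood at 0.28, 0.10 and 0.42 on the deletion arrays, and all tested genes between -0.03 and 0.02. Quantile normalisation holds the medians of all tested genes near 0, so they are no separate control. The 10 genes were chosen by this comparison, so their height is a description.

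The fluidics station could be held constant only by setting wild-type replicate 3 alone against the 3 deletion arrays. Within that station replicate 3 lay below all 3 deletion arrays for 21 of the 42 genes, beside 36.2% of all tested genes. The 10 risers are among the 21 by construction, since none of them had overlapping strains, and their count is no check on the station. It lay above all 3 for 5 of the 42, beside 37% of all tested genes. The within-station difference was 1.05 for EMG1, 0.85 for UTP22 and -1.19 for FAL1 on the log2 scale, and for KRR1 and IMP3 it was 0.39 and 0.43. With the station as a block in limma, EMG1 kept its call among the risers (adjusted p = 0.0444), 9 lost it with log2 fold changes between 0.39 and 0.97, and FAL1 kept it (adjusted p = 0.0443). In that fit 4.98% of all tested genes were called higher and 4.77% lower. On the deposited scale none of the 42 was called higher (log2 fold changes of the 10 risers from 0.28 to 0.85, limma adjusted p from 0.168 to 0.719), beside 2.3% of all tested genes. The median of the 42 was then -0.05 and that of all genes -0.25. Above the median of all genes lay 31 of the 42, the number found after quantile normalisation. A shift shared by all genes of an array leaves this count unchanged, so the match is no check on the calls.

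Long genes were frequent among the risers. Of the 14 longest of the 42 genes, at least 2367 bp in the R64 gene table, 7 rose, with a median log2 fold change of 0.60: RRP5, UTP20, UTP22, KRE33, UTP21, UTP14 and UTP13. Of the 14 of middle length 0 were called in either direction (median 0.16), and each of their 95% intervals, unadjusted, included 0. Of the 14 shortest, 3 rose, EMG1, KRR1 and IMP3, and FAL1 fell (median 0.08). In the same length classes, 10.2%, 9.78% and 19.3% of all tested protein-coding genes were called higher and 14.4%, 20.9% and 15.5% lower, with medians of -0.02, -0.11 and 0.05. Across the 42 genes the correlation of log2 length with log2 fold change was 0.36 (Pearson) and 0.41 (Spearman), and across 5123 tested protein-coding genes it was -0.12 and -0.14. These are descriptions across genes, which share arrays and are not independent replicates, and the length classes were drawn after the values had been seen.

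**Figure D4:**
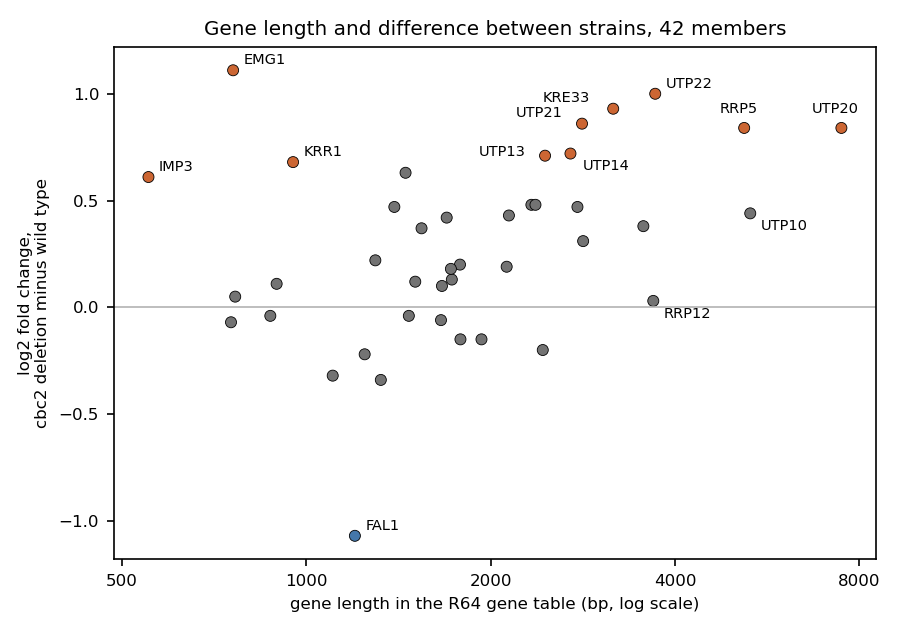
Gene length against log2 fold change for the 42 genes, with length on a log axis. Orange points were called higher in the deletion, the blue point lower, and grey points were not called. Of the 14 genes of at least 2367 bp, 7 were called higher.

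No gene of the set lies next to another of the set in the R64 gene table, and none overlaps its neighbour. Of 18 neighbours that start in the opposite direction from the same intergenic region 16 were tested, 4 of which were called higher and 2 lower, beside 16.3% of all tested genes in each direction, which for so few genes is no result about the neighbours. Among the risers, 4 had such a neighbour, and in 3 cases it rose too: MRPL6 beside IMP3 (log2 fold change 1.51), FYV6 beside KRE33 (0.73) and RPS10B beside RRP5 (0.63). The gaps between the genes were 250, 628 and 1290 bp in that order. These 4 were picked by the call of the gene beside them and are also too few for a result. MRPL6 encodes a mitochondrial ribosomal protein and RPS10B a protein of the 40S subunit. VIP1 beside UTP21 was not called (0.29). The remaining neighbour that rose, MRPS16 (0.67), lies beside RRP12, which was not called (0.03).

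Another 49 genes known for 18S processing and 40S assembly were set beside the 42. All but RRP36 were tested, 48 in all, of which 8 rose and none fell, that is 16.7% higher, beside 16.3% of all tested genes. Their median log2 fold change was 0.17, and 36 lay above 0. LCP5, at -0.45, was the 1 gene below 0 with an unadjusted p under 0.05 (limma adjusted p = 0.052), and it was chosen after its value was seen. CKB1 (YGL019W), a regulatory subunit of casein kinase 2, which is part of UTP-C, was at 216, 177 and 230 in the wild type and 509, 401 and 539 in the deletion, with no overlap (log2 fold change 1.22, SE 0.18, limma adjusted p = 0.00128). The other kinase genes CKA1, CKA2 and CKB2 were not called, at -0.20, 0.33 and 0.21. SAS10, a processome protein also called Utp3, rose by 1.04 on the log2 scale. The methyltransferase gene NOP1, the yeast fibrillarin, and its partners of the box C/D particles NOP56 and NOP58 rose by 0.65, 0.83 and 0.70, while the fourth protein of those particles, SNU13, was at -0.01. ESF2, CMS1 and RRT14 rose by 0.58, 0.83 and 0.69 (limma adjusted p = 0.0351, 0.0365 and 0.0449). Without deletion replicate 1 the calls among these genes went from 8 to 2, without deletion replicate 3 to 4, without wild-type replicate 2 to 3 and without wild-type replicate 3 to 5, beside 11%, 14.4%, 11.9% and 12.4% of all tested genes.

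Of 14 regulators of ribosome assembly and ribosomal protein genes, 3 fell and none rose, beside 16.3% of all tested genes in each direction. None of the other 11 had an unadjusted p under 0.05. CRF1 (YDR223W), a corepressor of ribosomal protein genes, was at 70.6, 71.0 and 65.0 in the wild type and 19.3, 24.3 and 23.1 in the deletion (log2 fold change -1.64, SE 0.22, limma adjusted p = 0.00075). TOD6, a repressor of ribosome assembly genes, fell by 0.78 (limma adjusted p = 0.0123), and SFP1, an activator of both gene groups, by 0.68 (limma adjusted p = 0.0203). In none of the 3 did the strains overlap. DOT6, the relative of TOD6, was at 0.45 and was not called. FHL1, IFH1 and RAP1, which act at ribosomal protein promoters, were at 0.12, -0.21 and 0.16. On the deposited scale and with the station as a block CRF1 kept its call, and TOD6 and SFP1 lost it. Their log2 fold changes were then -1.11 and -0.95 on the deposited scale, where the median of all genes was -0.25, and -0.60 and -0.74 with the block.

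Leaving out wild-type replicate 2 reduced the number of risers among the 42 genes from 10 to 6, beside 11.9% of all tested genes. UTP13, IMP3, KRE33 and KRR1 lost their calls there, with log2 fold changes of 0.70, 0.52, 0.83 and 0.57. Without wild-type replicates 1 or 3 the count was 8, beside 13.1% and 12.4% of all tested genes. Without deletion replicate 1 it was 7 of 41, since KRE33 was then too dim to be tested, beside 11%, and without deletion replicate 3 it was 8, beside 14.4%. Without deletion replicate 2, the array scanned apart, it was 10, beside 13.9%, with a median log2 fold change of 0.40. RRP5, UTP20, UTP21, UTP22 and EMG1 kept their calls whichever array was left out. Without the filter on dim probe sets 7 of the 42 were called higher, beside 11.2%, and with the replicate number as a block 10, beside 14.5%. In that block fit ENP1 was called in place of UTP13. With a change of at least 2-fold also required, EMG1 was the only one of the 42 called higher, beside 5.36% of all tested genes, and FAL1 was still called lower.

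**Figure D5:**
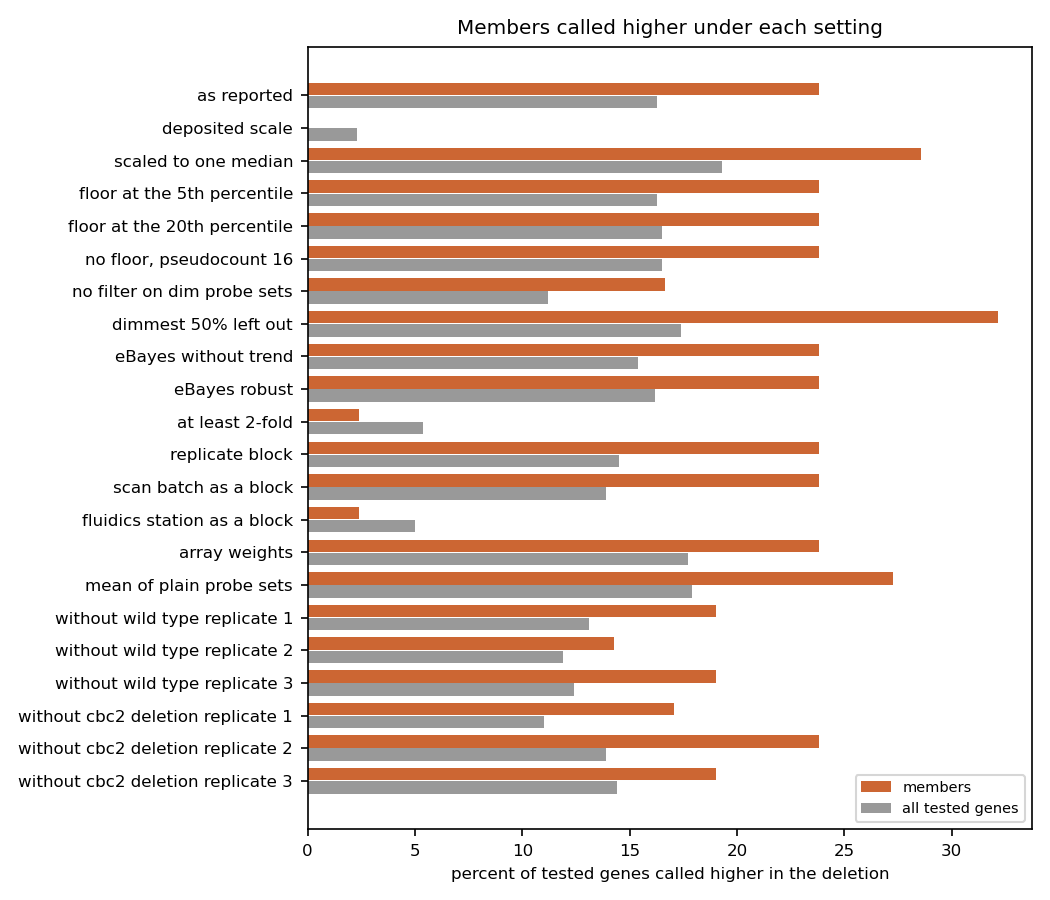
Percent of the tested genes of the set (orange) and of all tested genes (grey) that were called higher in the deletion under each processing setting. The share of the set is 23.8% as reported, beside 16.3% of all tested genes. It lies under the share of all genes on the deposited scale, with 2-fold required and with the fluidics station as a block.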

How the data were processed

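The authors deposited 1 linear intensity per probe set and array, 9335 probe sets on 6 arrays, with no stated scale. How the probes were summarised is not given in the sources used here. Run information files were deposited per array and read, per the file headers, for the fluidics station and scan batch only, as batches. Intensities were quantile normalised, raised to a floor at the 10th percentile (8.25) and log2 transformed. Probe sets for Affymetrix controls (60) and the dimmest 25% of those remaining were dropped. The remaining 6956 probe sets were tested with limma 3.58.1 in R 4.3.3 (lmFit, eBayes, trend on intensity). Adjusted p-values are Benjamini-Hochberg values over all of these. The number of arrays limits the precision (median SE 0.20).

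Of the probe sets, 6504 had 1 gene symbol, 328 several and 2503 none, and all 6504 were matched by gene ID to the R64 gene table. DBP4 and MDN1 of the written lists were found as HCA4 and REA1. Each gene was read from 1 probe set, the brightest plain one (no suffix marking cross-hybridisation) or else the brightest. The genes and lists were chosen with earlier results of these data known, and no list was tested as a set. Array values are given for called genes and for the gene of smallest p of each role group, with CBC2 as the check. Other genes outside that rule were chosen after their values were seen. The labels do not state that the replicate numbers pair samples, so no pairing was used. Same-numbered samples of the 2 strains correlated in their deviations at -0.23, -0.09 and 0.08, and unmatched ones at -0.13 to 0.25. So few arrays cannot decide whether samples were paired. A planned count of promoter motifs was not run. The alternatives were the deposited scale, one median, other floors, a pseudocount of 16, other filters, variance models and probe set rules, a 2-fold rule, blocks, array weights and leaving out each array.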

Additional observations from a re-analysis of the deposited data

How the results depend on the processing

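The count of 10 genes called higher became 0 on the deposited scale, 1 with 2-fold required and 1 with the fluidics station block. Calls fell over the genome too, to 2.3%, 5.36% and 4.98% of all tested genes called higher. When 1 array was left out the count ranged from 6 to 10, beside 11% to 14.4% of all tested genes. The station fit has a single wild-type array, replicate 3, beside the deletion arrays in its station. The count of 1 gene called lower stood beside 16.3% of all tested genes as reported. It became 0 with the dimmest 50% left out and with the mean of plain probe sets, where FAL1 was not tested. Without any one array it was 1. The median log2 fold change of 0.27 became -0.05 on the deposited scale, where the median of all tested genes was -0.25. It ranged from 0.22 to 0.40 without one array. Among the 48 other genes, the count of 8 called higher became 0 on the deposited scale and 4 without a filter on dim probe sets. It became 2 with 2-fold required and 3 with the station block. The shares of all tested genes called higher were 2.3%, 11.2%, 5.36% and 4.98% in these settings. Without one array the count ranged from 2 to 8. Their count of 0 called lower stood beside 16.3% of all tested genes as reported. It became 1 in 4 settings: no filter on dim probe sets, dimmest 50% left out, array weights and the mean of plain probe sets. The shares of all tested genes called lower in these settings are not given here. The cause of the change was not tested. With the replicate block the count of 10 stayed at 10 and that of 8 became 6, beside 14.5% of all tested genes. UTP13 (limma adjusted p = 0.0505) lost its call there and ENP1 (limma adjusted p = 0.0452) gained one, so the 10 were not the same genes. Of 31 genes not called, 28 were called in none of the 21 other settings, and TSR1, UTP10 and ENP1 were called higher in 3, 2 and 1. The number of arrays limits what can be seen: at the median SE of 0.20, changes under 1.5-fold were often not called.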

Other observations

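Of 67 genes of 60S subunit assembly, a list written by hand, 13 rose and 3 fell, 19.4% and 4.48%, beside 16.3% of all tested genes in each direction, and 51 were not called. Their median log2 fold change was 0.27, beside 0.27 for the 42 genes and 0.17 for the 48 other genes of 18S processing and 40S assembly. NOP12, an RNA-binding protein of the large subunit precursor, rose by 1.16 on the log2 scale (limma adjusted p = 0.0091), from 36.6, 32.0 and 30.8 to 86.6, 91.6 and 51.0. The helicase gene DBP3 rose by 1.07, RRS1 by 0.99 and the AAA-type ATPase gene REA1 by 0.91. The 3 that fell were the helicase genes DBP7 and DBP6, by 0.59 and 0.51, and TIF6, which keeps the 60S subunit from joining the 40S subunit, by 0.50 (limma adjusted p = 0.0227, 0.039 and 0.0331). The difference between the 60S and 40S lists was not tested.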
